A study of Mus musculus with 16 samples.

Results

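The comparison set the midgut-posterior section of the mouse gut tube against the anterior-midgut section that lies in front of it. It took 4 of the 16 libraries of the series, the 2 whose titles name the mid gut to posterior piece and the 2 whose titles name the anterior to mid gut piece, and covered every gene that could be tested. Both groups came from embryos at the 13-somite stage (E8.75), given no treatment, whose gut tubes had been freed with a short pancreatin and trypsin step and cut with needles after head and extraembryonic membranes were taken off. Polyadenylated RNA was sequenced from each piece as bulk tissue. The labels give neither the strain of these embryos, nor whether they carried the Afp-GFP reporter named for the single-cell part of the study, nor the number of embryos in a library, nor where along the tube the cuts fell. Adjusted p-values therefore measure the spread between libraries of a group, which may be technical. That spread was estimated over all 16 libraries of the series, not from these 4 alone. The anterior and posterior sections, 2 libraries each, are used below only to place the genes along the tube.

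At this stage the gut tube is an epithelium of endoderm wrapped in mesoderm, and its regions are told apart by transcription factors long before organs form. Hox genes are switched on in the order of their place in each cluster, so that members with higher numbers are read only in more posterior tissue, and the Cdx homeobox factors act upstream of many of them in the trunk and hindgut. The front of the tube lies beside the forming heart and carries the buds of liver and pancreas, while primordial germ cells travel through the hindgut epithelium. Endoderm that descends from visceral endoderm, the early layer that feeds the embryo, mixes with definitive endoderm along the tube.

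The midgut-posterior libraries held 71266237 and 70987960 counts and the anterior-midgut libraries 75494338 and 74918912. The mitochondrial share was 2.63% and 2.43% in the midgut-posterior libraries and 2.36% and 2.63% in the anterior-midgut libraries, so that the sections overlapped. Levels below are CPM, counts scaled to the library total times its TMM factor, and fold changes are log2 values of the midgut-posterior over the anterior-midgut section. Of 18 markers of gut epithelium, all were detected in both sections, with a sum of 3351 and 2772 CPM in the midgut-posterior libraries and 3099 and 2302 CPM in the anterior-midgut libraries. Epcam, an epithelial adhesion protein, stood at 223 and 159.9 CPM in the midgut-posterior libraries and 208 and 165 CPM in the anterior-midgut libraries. Libraries with the number 1 were higher than those with the number 2 for 16 of the 18 markers in the midgut-posterior section and for 17 in the anterior-midgut section. The anterior-midgut libraries also differed from each other in visceral endoderm genes. All 28 such genes were lowest, among the 4 libraries, in anterior-midgut library 2, and their sum was 2.51 times as high in anterior-midgut library 1. Across all genes tested, the SD of log2 differences was 0.580 between the midgut-posterior libraries and 0.585 between the anterior-midgut libraries. It was 0.697 between the section means. The last value compares means of 2 libraries, which vary less than single libraries, so it cannot be set directly against the others.

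Genes of the posterior body axis were higher in the midgut-posterior section and genes of heart muscle were lower. Of 17313 genes tested, 86 passed at an adjusted p under 0.05 in edgeR's quasi-likelihood test (0.497%), 30 of them higher (0.173%) and 56 lower (0.323%). The section libraries did not overlap for any of the 86, against 21.1% of all genes with both midgut-posterior libraries above both anterior-midgut libraries and 20% with both below. The change passed 1 on the log2 scale for 82 of them, while the median over all genes tested was 0.00. An unadjusted p under 0.05 was reached by 1241 genes. Since each library is a bulk sample, fewer cells of a type and less RNA per cell cannot be told apart for any gene below. The number of calls rests on having both libraries of each section: 9 genes passed without midgut-posterior library 1, 17 without midgut-posterior library 2, 7 without anterior-midgut library 1 and 6 without anterior-midgut library 2. Hoxa7 and Hoxb9 passed in each of these 4 fits, Myocd in 3, and Cdx2, Cdx4, Evx1, Hoxa9, Hoxd9, Prox1 and Ttn in 2. DESeq2 called 443 genes (2.56%), among them all 86, and a fit of the 4 libraries alone called 251 of 15857 (1.58%), among them 73 of the 86.

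**Figure D1:**
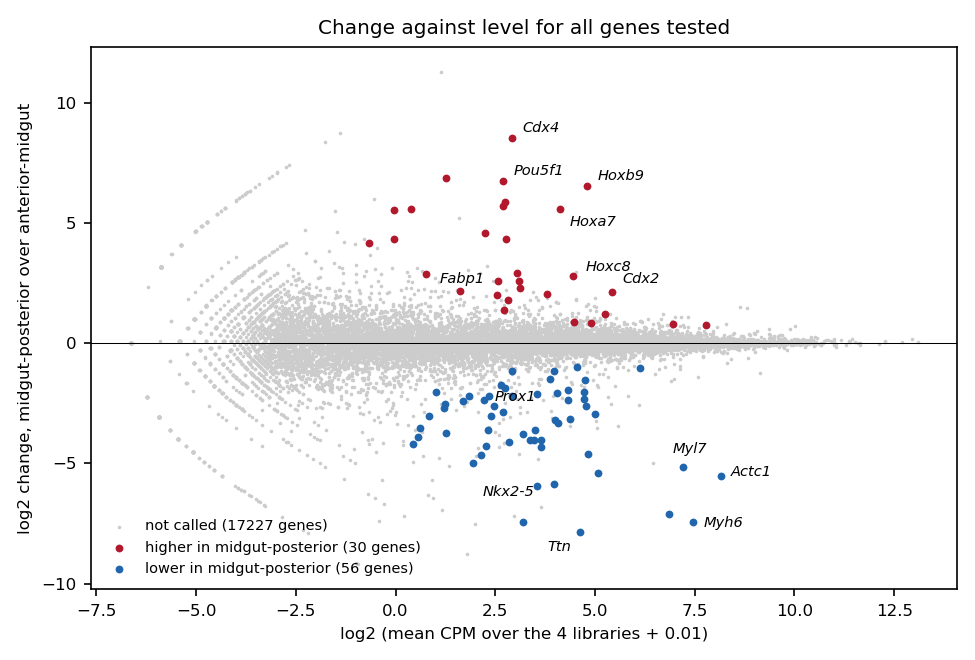
Change between the sections against level, with 1 point per gene. The horizontal axis is the log2 of the mean CPM over the 4 libraries plus 0.01, the vertical axis the log2 change of the midgut-posterior over the anterior-midgut section, with 30 genes called higher in red, 56 called lower in blue and the others in grey. Heart muscle genes such as Ttn (-7.87) and Myh6 (-7.46) lie at the bottom, and Cdx4 (8.53) and Hoxb9 (6.52) at the top.

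Hox genes of the middle and last paralog groups were higher in the midgut-posterior section. Of 11 genes in paralog groups 5 to 8, 4 rose in the midgut-posterior section (0.173% of all genes tested rose). All 11 had both midgut-posterior libraries above both anterior-midgut libraries (21.1% of all genes tested), with a median log2 change of 2.81. Of 16 genes in groups 9 to 13, 14 could be tested and 5 rose, and their median log2 change was 4.63. The median is 4.30 if Hoxd11, which had 0 counts in both anterior-midgut libraries, is set to its bound. None of 12 genes in groups 1 to 4 passed in edgeR, where an unadjusted p under 0.05 was reached by 3 higher genes and 1 lower gene; by DESeq2, 1 was higher. Their median log2 change was -0.11. The median over all genes tested was 0.00. By paralog group the median moved through -0.43, -0.27, -0.07 and 0.31 in groups 1 to 4, then 0.77, 2.91, 4.07 and 2.95 in groups 5 to 8. It was highest in group 9, at 5.80, and lower again behind it, at 5.57 in group 10, 4.05 in group 11 (2.83 with Hoxd11 at its bound) and 2.53 in group 13, where Hoxb13 had 0 counts in all 4 libraries. No gene of groups 11 or 13 passed. Anterior-midgut levels there lay near 0, as for Hoxa11 at 0.0260 and 0 CPM, so the size of these medians is uncertain. With 1 library left out, the log2 change of Hoxa11 ran from 1.01 to 7.13.

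In paralog group 9, all 4 members rose, and none of them reached 2 CPM in an anterior-midgut library. Hoxb9 was read at 51.7 and 58.3 CPM in the midgut-posterior libraries and at 0.0650 and 1.13 CPM in the anterior-midgut libraries, a log2 change of 6.52 (SE 0.85, adjusted p = 0.00856 by edgeR). Its anterior-midgut libraries differed widely from each other, yet both lay far below the midgut-posterior ones. Hoxa9 had 7.44 and 18.8 CPM in the midgut-posterior libraries against 0.130 and 0.312 CPM in the anterior-midgut libraries (log2 change 5.88), and Hoxd9 had 7.52 and 17.98 CPM in the midgut-posterior and 0.221 and 0.260 CPM in the anterior-midgut libraries (log2 change 5.72). Hoxc9 stood at 6.53 and 11.6 CPM in the midgut-posterior libraries and 0.377 and 0.389 CPM in the anterior-midgut libraries. For Hoxa9, Hoxd9 and Hoxc9, midgut-posterior library 2 was the higher one, as it was for 12 of the 14 genes tested of groups 9 to 13. Hoxb9 passed in all 4 fits with 1 library left out, Hoxa9 and Hoxd9 only in those without midgut-posterior library 1 (adjusted p = 0.0188 and 0.0172) or 2 (adjusted p = 0.0400 and 0.0196), and Hoxc9 only in that without midgut-posterior library 1 (adjusted p = 0.0463).

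Among the middle paralogs, Hoxa7 showed the largest change of the 11. It had 34.2 and 33.4 CPM in the midgut-posterior libraries and 0.195 and 1.23 CPM in the anterior-midgut libraries, a log2 change of 5.56 (SE 0.65, adjusted p = 0.00525 by edgeR), and it passed with any 1 library left out, at an adjusted p between 0.0106 and 0.0369. Hoxb7 stood at 15.02 and 14.01 CPM in the midgut-posterior libraries against 2.25 and 2.58 CPM in the anterior-midgut libraries, Hoxc8 at 32.8 and 43.9 CPM in the midgut-posterior and 5.82 and 5.11 CPM in the anterior-midgut libraries, and Hoxc6 at 11.8 and 17.4 CPM in the midgut-posterior and 1.23 and 2.64 CPM in the anterior-midgut libraries. These 3 genes were thus already read in the anterior-midgut section, and their log2 changes were 2.59, 2.81 and 2.91. None of the 3 passed once a library was left out, where their adjusted p ran from 0.0864 to 0.259, and the count in groups 5 to 8 was then 1 in each of the 4 fits. Hoxb6 had 31.7 and 39.1 CPM in the midgut-posterior libraries and 10.3 and 10.1 CPM in the anterior-midgut libraries and missed the threshold (log2 change 1.80, adjusted p = 0.0517 by edgeR), as did Hoxb8 (adjusted p = 0.0637) and Hoxd8 (adjusted p = 0.0892). Hoxa5 was measured at 50.7 and 42.4 CPM in the midgut-posterior libraries and 23.4 and 22.9 CPM in the anterior-midgut libraries (adjusted p = 0.620).

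The last groups were read at low levels in these sections. Hoxa10 rose, with 1.45 and 3.64 CPM in the midgut-posterior libraries and 0.0780 and 0.0260 CPM in the anterior-midgut libraries (log2 change 5.57, adjusted p = 0.0368 by edgeR), and lost the call in every fit with 1 library left out, at an adjusted p between 0.0864 and 0.295. Hoxc10 had 0.195 and 2.49 CPM in the midgut-posterior libraries and 0.0390 and 0 CPM in the anterior-midgut libraries, almost all of it in midgut-posterior library 2, and did not pass (adjusted p = 0.159). Hoxd13, the last gene of its cluster, stood at 0.949 and 1.05 CPM in the midgut-posterior libraries and 0.0780 and 0.208 CPM in the anterior-midgut libraries (adjusted p = 0.231). Hoxd11 had 0 counts in both anterior-midgut libraries and was at least 7.13-fold higher in the midgut-posterior section, taking 3 counts in the anterior-midgut libraries together as the floor, which covers counting error only. That bound is 9.94-fold without midgut-posterior library 1, 4.30-fold without midgut-posterior library 2, and 3.57-fold or 3.56-fold without anterior-midgut library 1 or 2. Of the 5 calls in groups 9 to 13, 4 held without midgut-posterior library 1, 3 without midgut-posterior library 2, and 1 without either anterior-midgut library. DESeq2 called 9 genes of groups 9 to 13 higher, and 7 of groups 5 to 8, against 2.56% of all genes tested in either direction. In group 1, Hoxb1 had 32.6 and 55.8 CPM in the midgut-posterior libraries and 71.5 and 70.9 CPM in the anterior-midgut libraries (adjusted p = 0.589), and Hoxd1 had 10.2 and 12.1 CPM in the midgut-posterior and 1.91 and 2.96 CPM in the anterior-midgut libraries (adjusted p = 0.214).

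**Figure D2:**
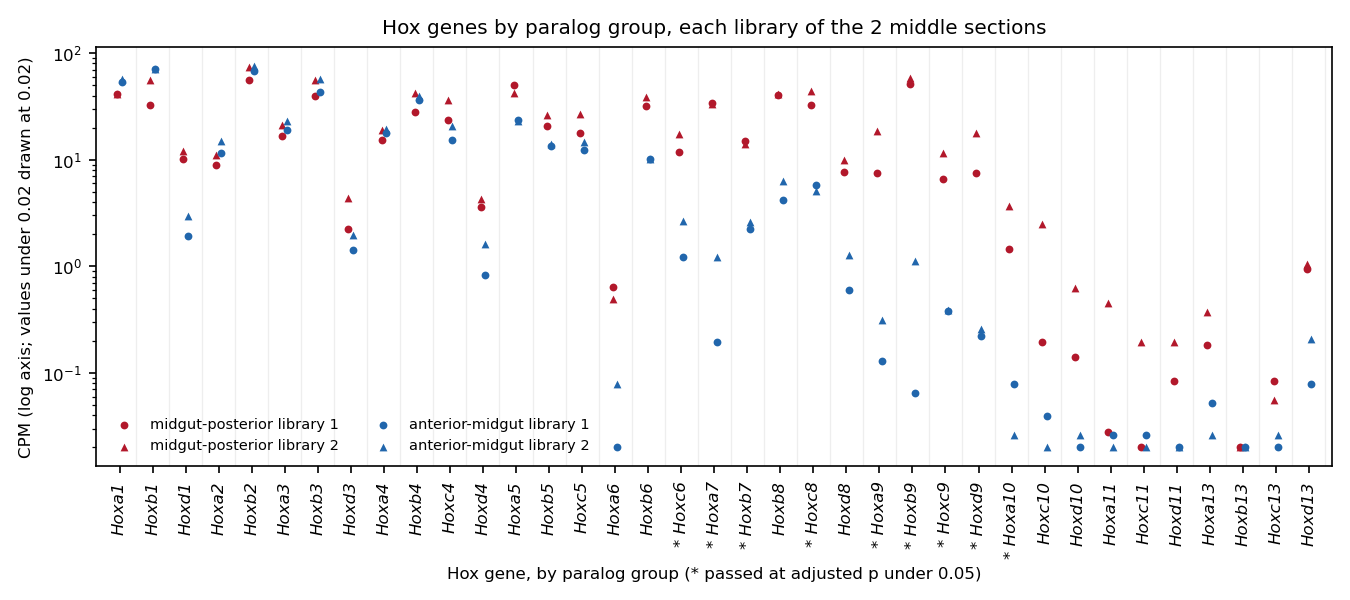
Level of each tested Hox gene in the 4 libraries, in CPM on a log axis, ordered by paralog group, with midgut-posterior libraries in red left of anterior-midgut libraries in blue and a star at the 9 genes that passed. Values under 0.02 are drawn at 0.02. Groups 1 to 3 have log2 changes between -0.69 and 0.97 apart from Hoxd1 (2.19), and the widest gaps lie from group 6 on, as for Hoxb9 at 51.7 and 58.3 CPM in the midgut-posterior and 0.0650 and 1.13 CPM in the anterior-midgut libraries.

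All 3 Cdx genes rose in the midgut-posterior section, together with the homeobox gene Evx1 of the posterior axis. Cdx2, which directs intestinal identity, was read at 80.1 and 59.9 CPM in the midgut-posterior libraries and at 16.1 and 15.7 CPM in the anterior-midgut libraries, a log2 change of 2.14 (SE 0.23, adjusted p = 0.00525 by edgeR). The anterior-midgut section thus already carried Cdx2, at closely matching levels in its libraries. Cdx1 stood at 14.4 and 14.5 CPM in the midgut-posterior libraries and 1.72 and 4.21 CPM in the anterior-midgut libraries (log2 change 2.29, adjusted p = 0.0260). Cdx4 was barely read in the anterior-midgut section, with 13.2 and 16.9 CPM in the midgut-posterior libraries and 0.0260 and 0.0519 CPM in the anterior-midgut libraries, which hold only 2 and 4 counts (log2 change 8.53, adjusted p = 0.00645). Evx1 had 3.50 and 6.06 CPM in the midgut-posterior libraries and 0.0260 and 0.0519 CPM in the anterior-midgut libraries, again 2 and 4 counts (log2 change 6.88, adjusted p = 0.00525). Without an anterior-midgut library Cdx2, Cdx4 and Evx1 missed the threshold, with an adjusted p of 0.0567, 0.113 and 0.0739 without library 1 and of 0.0659, 0.0872 and 0.0690 without library 2. Cdx1 passed only without anterior-midgut library 2 (adjusted p = 0.0299).

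These 4 were the only calls among 16 midgut and hindgut genes, whose median log2 change was 0.91 against 0.00 over all genes, of which 0.173% rose. The count was 3 without either midgut-posterior library, 0 without anterior-midgut library 1 and 1 without anterior-midgut library 2. Ihh, Isx and Vil1 did not pass. Ihh, a hedgehog ligand of the gut epithelium, had 59.6 and 34.4 CPM in the midgut-posterior libraries and 27.3 and 18.9 CPM in the anterior-midgut libraries (adjusted p = 0.352 by edgeR), and Isx, an intestinal homeobox gene, had 8.31 and 5.47 CPM in the midgut-posterior and 2.57 and 2.74 CPM in the anterior-midgut libraries (adjusted p = 0.851). Vil1, the microvillus protein villin, stood at 54.5 and 42.05 CPM in the midgut-posterior libraries and 61.99 and 22.6 CPM in the anterior-midgut libraries, so that its anterior-midgut libraries enclosed the others.

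To show what lies in front of genes called higher, 250 bases upstream of the RefSeq start were read from a table of build GRCm38.p6, which had a window for 19 of the 30 genes (26 windows). The letters TTTATG, bound by CDX factors, were searched on both strands. They were found in 4 of these 26 windows (15.4%) and in 13.1% of the 61 windows of genes called lower. Of the 16151 windows of genes tested, 6.68% held them. Other motifs searched are given below. Hoxa7 and Fabp1 are shown because each window holds the letters at 2 places. Capitals mark them, as CATAAA where they lie on the other strand, and matches are a description of the sequence, not binding sites. The windows are chr6:52218574-52218823 on the minus strand for Hoxa7 and chr6:71199629-71199878 on the plus strand for Fabp1, written 5′ to 3′.
Hoxa7: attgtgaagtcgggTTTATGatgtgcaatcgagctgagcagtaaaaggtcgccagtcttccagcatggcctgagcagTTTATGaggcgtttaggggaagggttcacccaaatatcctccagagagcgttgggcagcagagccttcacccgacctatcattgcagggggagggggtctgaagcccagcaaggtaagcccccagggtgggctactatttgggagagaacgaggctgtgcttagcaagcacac
Fabp1: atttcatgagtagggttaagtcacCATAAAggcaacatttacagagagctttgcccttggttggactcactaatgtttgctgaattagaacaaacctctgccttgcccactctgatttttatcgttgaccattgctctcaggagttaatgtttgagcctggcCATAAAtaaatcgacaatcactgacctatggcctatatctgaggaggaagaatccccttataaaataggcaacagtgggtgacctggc

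Among germ cell genes, Pou5f1 rose in the midgut-posterior section. Pou5f1 (Oct4), a factor kept on in primordial germ cells, had 19.6 and 5.97 CPM in the midgut-posterior libraries and 0.104 and 0.130 CPM in the anterior-midgut libraries, a log2 change of 6.75 (SE 0.98, adjusted p = 0.0148 by edgeR). Midgut-posterior library 1 was well above library 2, and the call held only without library 2 of that section (adjusted p = 0.0196), the other 3 fits giving an adjusted p between 0.0864 and 0.158. It was the only call among 18 germ cell genes (0.173% of all genes tested rose). Of these 18, 13 had both midgut-posterior libraries above both anterior-midgut libraries (21.1% of all genes), and the list's median log2 change was 0.90. Dppa3 (Stella), a germ cell marker, had 6.74 and 1.97 CPM, or 483 and 142 counts, in the midgut-posterior libraries and 0 counts in both anterior-midgut libraries, and was at least 223-fold higher, with an adjusted p of 0.0517. That bound is 101-fold without midgut-posterior library 1, 346-fold without midgut-posterior library 2, and 112-fold or 111-fold without anterior-midgut library 1 or 2. DESeq2 called 7 of the 18, against 2.56% of all genes tested. Pou5f1 and Dppa3 have near-identical pseudogenes, and how reads shared with them were counted is not given. Prdm14, a regulator of germ cell fate, had 1.40 and 0.443 CPM in the midgut-posterior libraries and 0.0520 and 0.0519 CPM in the anterior-midgut libraries (adjusted p = 0.168), and Nanog had 2.35 and 0.969 CPM in the midgut-posterior and 0.130 and 0.247 CPM in the anterior-midgut libraries (adjusted p = 0.143). Midgut-posterior library 1 exceeded library 2 for 16 of the 18 genes. Kit, the receptor that migrating germ cells and other cells carry, was at 70.6 and 64.5 CPM in the midgut-posterior libraries and 58.7 and 54.6 CPM in the anterior-midgut libraries.

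Of 20 genes of the tail bud and presomitic mesoderm, Fgf17 and Evx1 rose in edgeR (0.173% of all genes tested rose) and none fell. Evx1 was already counted among the midgut and hindgut genes. The median log2 change of the list was 1.60, with 13 members positive and 7 negative, the lowest at -2.09. Both midgut-posterior libraries lay above both anterior-midgut libraries for 12 of the 20 (21.1% of all genes tested) and below them for 3 (20%). An unadjusted p under 0.05 was reached by 10 higher genes and 1 lower gene of the list, against 1241 of all 17313 genes tested. By DESeq2 7 were higher, against 2.56% of all genes called in either direction. Fgf17, a growth factor of the tail bud, had 1.26 and 2.44 CPM in the midgut-posterior libraries and 0.0260 and 0.156 CPM in the anterior-midgut libraries (log2 change 4.32, adjusted p = 0.0260 by edgeR). It passed in no fit with a library left out, at an adjusted p between 0.0864 and 0.219, and the list's count was then 1 without either midgut-posterior library and 0 without either anterior-midgut library. T (Brachyury), a factor of axial mesoderm, had 49.3 and 51.5 CPM in the midgut-posterior libraries and 14.6 and 12.8 CPM in the anterior-midgut libraries and did not pass (log2 change 1.88, adjusted p = 0.117). Msgn1 and Tbx6, which define presomitic mesoderm, stood at 0.0558 and 0.318 CPM and 0.503 and 1.85 CPM in the midgut-posterior libraries, against 0 and 0.0260 CPM and 0.351 and 0.312 CPM in the anterior-midgut libraries. Midgut-posterior library 2 was above library 1 for 19 of the 20 genes. The part of such mesoderm, or of germ cells, in the changes above was not tested.

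Fabp1, Rgn and Aqp7, genes of lipid and calcium handling, rose as well. Fabp1, the liver type of fatty acid-binding protein, had 12.98 and 7.42 CPM in the midgut-posterior libraries and 1.62 and 1.74 CPM in the anterior-midgut libraries, a log2 change of 2.60 (SE 0.41, adjusted p = 0.0223 by edgeR; adjusted p = 0.0395 without midgut-posterior library 2 and between 0.164 and 0.242 in the other 3 fits). Rgn (regucalcin), a calcium-binding enzyme, had 26.4 and 18.5 CPM in the midgut-posterior and 6.53 and 4.49 CPM in the anterior-midgut libraries, and Aqp7, a channel for water and glycerol, had 3.78 and 2.20 CPM in the midgut-posterior and 0.364 and 0.454 CPM in the anterior-midgut libraries. The log2 changes of these 2 genes were 2.03 and 2.86, and neither passed with any 1 library left out (adjusted p between 0.128 and 0.447). Fabp1, Rgn and Aqp7 were the 3 calls on a list of 16 genes of lipid and lysosome handling (0.173% of all genes tested rose). The list was put together after the values were seen, and its median log2 change was -0.01. Rarg, a receptor for retinoic acid and the only call among 16 genes of that pathway, stood at 51.02 and 54.2 CPM in the midgut-posterior libraries and 22.5 and 23.5 CPM in the anterior-midgut libraries, with libraries of a section close together (log2 change 1.19, adjusted p = 0.0424). Cxcr4, a chemokine receptor of definitive endoderm, had 10.9 and 8.23 CPM in the midgut-posterior libraries and 3.52 and 3.76 CPM in the anterior-midgut libraries (log2 change 1.39) and was the only call among the 18 epithelial genes, whose median was 0.18. Pax2, a factor of intermediate mesoderm, had 5.44 and 4.50 CPM in the midgut-posterior libraries and 0.754 and 1.44 CPM in the anterior-midgut libraries (log2 change 2.18, adjusted p = 0.0495). Without any 1 of the 4 libraries, Rarg (adjusted p between 0.246 and 0.294), Cxcr4 (0.139 to 0.480) and Pax2 (0.116 to 0.402) were not called.

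F11r, Laptm4b, Lhpp and Fam189b rose by less than 1 on the log2 scale. F11r, a tight junction adhesion molecule, had 314 and 239 CPM in the midgut-posterior libraries and 178 and 152 CPM in the anterior-midgut libraries (log2 change 0.75, adjusted p = 0.0489 by edgeR). Laptm4b, a lysosomal membrane protein, had 177 and 136 CPM in the midgut-posterior and 92.8 and 87.9 CPM in the anterior-midgut libraries (log2 change 0.79), and it passed only without midgut-posterior library 2 among the 4 fits (adjusted p = 0.0196). Lhpp, a phosphatase, had 28.5 and 28.8 CPM in the midgut-posterior libraries and 16.9 and 14.7 CPM in the anterior-midgut libraries, and Fam189b had 37.2 and 38.6 CPM in the midgut-posterior and 20.9 and 21.9 CPM in the anterior-midgut libraries. With log2 changes of 0.86 and 0.82, these 4 genes, named after their values were seen, were the only calls under 1 on the log2 scale. F11r, Lhpp and Fam189b lost their calls with any 1 library left out, at an adjusted p between 0.0697 and 0.590. The remaining calls were Irgm1, an immunity-related GTPase, Peli3, a ubiquitin ligase, Btnl9, and the unnamed 2610528A11Rik and Gm53, with log2 changes from 1.78 to 5.54.

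Heart muscle genes made up a large part of the lower genes. Of 14 cardiac muscle genes, 7 fell in the midgut-posterior section (0.323% of all genes tested fell), and all 14 had both midgut-posterior libraries below both anterior-midgut libraries (20% of all genes), with a median log2 change of -4.41. Their summed level was 133 and 127 CPM in the midgut-posterior libraries and 2282 and 1878 CPM in the anterior-midgut libraries, a sum in which abundant and long transcripts weigh most. Among whole gut tubes the same sum was 569 and 219 CPM in bulk tissue and 316 and 2554 CPM in dissociated cells, so libraries of 1 group differed by a wide margin. Heart lies against the front of the gut tube, and whether cells of the heart field were kept on the anterior-midgut pieces was not tested. No member of the list was at 0 in any of the 4 libraries. Myh6 and Myh7, like the actin genes, are alike over long stretches, and how reads shared between them were counted is not given in the sources used here.

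Among the genes of the contractile filaments, Ttn, Myh6, Myl4, Actc1 and Myl7 fell. Ttn (titin), the spring protein of the sarcomere, had 0.209 and 0.208 CPM in the midgut-posterior libraries and 43.3 and 55.2 CPM in the anterior-midgut libraries, a log2 change of -7.87 (SE 0.89, adjusted p = 0.00525 by edgeR). Myh6, the alpha myosin heavy chain, had 3.08 and 0.913 CPM in the midgut-posterior libraries and 395 and 308 CPM in the anterior-midgut libraries (log2 change -7.46, adjusted p = 0.0397). The sections lay far apart for both genes, and the anterior-midgut libraries were close to each other. Actc1, cardiac actin, stood at 12.4 and 11.6 CPM in the midgut-posterior libraries against 628 and 487 CPM in the anterior-midgut libraries (log2 change -5.54), and the myosin light chains Myl7 and Myl4 stood at 7.90 and 8.14 CPM and 1.87 and 1.48 CPM in the midgut-posterior libraries, against 329 and 248 CPM and 258 and 202 CPM in the anterior-midgut libraries. Their log2 changes were -5.17 and -7.10. Tnnt2, cardiac troponin T, had 3.02 and 7.78 CPM in the midgut-posterior libraries and 184 and 156 CPM in the anterior-midgut libraries and missed the threshold (adjusted p = 0.0517). Myl3 and Smyd1 showed the smallest differences of the list, with 27.1 and 14.1 CPM and 30.8 and 27.7 CPM in the midgut-posterior libraries against 38.2 and 27.7 CPM and 47.99 and 50.7 CPM in the anterior-midgut libraries. Ttn passed without anterior-midgut library 1 (adjusted p = 0.0369) or 2 (0.0284) but not without midgut-posterior library 1 (0.0864) or 2 (0.0762), and the count of 7 became 1 without either anterior-midgut library and 0 without either midgut-posterior library. The other 6 calls had an adjusted p between 0.0808 and 0.540 in those fits, always with a negative log2 change, and the fit of the 4 libraries alone called 12 of the 14.

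Of 19 cardiac transcription factors on a list put together after the values were seen, 5 fell and none rose (0.323% of all genes tested fell), and 14 did not pass. Nkx2-5, an early cardiac and foregut factor, had 0.168 and 0.886 CPM in the midgut-posterior libraries and 27.2 and 34.2 CPM in the anterior-midgut libraries (log2 change -5.86, SE 1.10, adjusted p = 0.0440 by edgeR). Mef2c had 9.67 and 10.96 CPM in the midgut-posterior libraries and 40.4 and 44.2 CPM in the anterior-midgut libraries (log2 change -2.03). Myocd (myocardin), the coactivator of serum response factor, had 0.824 and 0.734 CPM in the midgut-posterior libraries and 11.7 and 15.2 CPM in the anterior-midgut libraries (log2 change -4.11, adjusted p = 0.00525), and missed the threshold only without midgut-posterior library 1 (adjusted p = 0.0566). Shox2, a factor of the pacemaker region, and Rbm24, an RNA-binding protein of muscle, were the other calls. Gata4, a member that did not pass, is also one of the markers of gut epithelium. It had 51.1 and 81.4 CPM in the midgut-posterior libraries and 212 and 159.5 CPM in the anterior-midgut libraries (adjusted p = 0.808). Tbx5, which did not pass either, had 2.62 and 8.22 CPM in the midgut-posterior and 23.4 and 26.96 CPM in the anterior-midgut libraries (adjusted p = 0.474). The list's count was 0 without midgut-posterior library 1 and 1 in each of the other 3 fits with a library left out.

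Sarcomere assembly and calcium handling genes were described on lists of the same kind, made after the values were seen. Of 39 sarcomere genes tested, 15 fell (0.323% of all genes tested fell) and 37 had both midgut-posterior libraries below both anterior-midgut libraries (20% of all genes tested). Their median log2 change was -3.84. Mybpc3, a myosin-binding protein, had 1.47 and 1.65 CPM in the midgut-posterior libraries and 66.4 and 65.3 CPM in the anterior-midgut libraries, and Ldb3, a protein of the Z-disc, had 0.335 and 0.415 CPM in the midgut-posterior and 26.2 and 19.8 CPM in the anterior-midgut libraries. Unc45b, a chaperone of myosin, had 2.65 and 1.77 CPM in the midgut-posterior libraries and 56.97 and 50.9 CPM in the anterior-midgut libraries, and Hspb7, a small heat shock protein of heart, had 0.0838 and 0.125 CPM in the midgut-posterior and 19.95 and 16.5 CPM in the anterior-midgut libraries. The log2 changes of these 4 genes were -5.40, -5.93, -4.61 and -7.43. Of 22 calcium and ion handling genes, 7 fell and none rose, against the same 0.323% lower, with a median of -1.74. Ryr2, the calcium release channel, had 2.02 and 4.18 CPM in the midgut-posterior libraries and 30.3 and 31.2 CPM in the anterior-midgut libraries, and Cacna2d2, a calcium channel subunit, had 0.949 and 1.44 CPM in the midgut-posterior and 25.5 and 22.1 CPM in the anterior-midgut libraries. Together 27 of the 56 lower genes stood on one of these cardiac lists, which hold 80 tested genes and were in part made after the values were seen, so that the count is a description. With a library left out, the sarcomere count was 0 without either midgut-posterior library and 1 without either anterior-midgut library, and the calcium count was 2 without midgut-posterior library 2 and 0 in the other 3 fits. DESeq2 called 27 sarcomere and 11 calcium handling genes lower, and 1 calcium handling gene higher, against 2.56% of all genes tested in either direction.

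**Figure D3:**
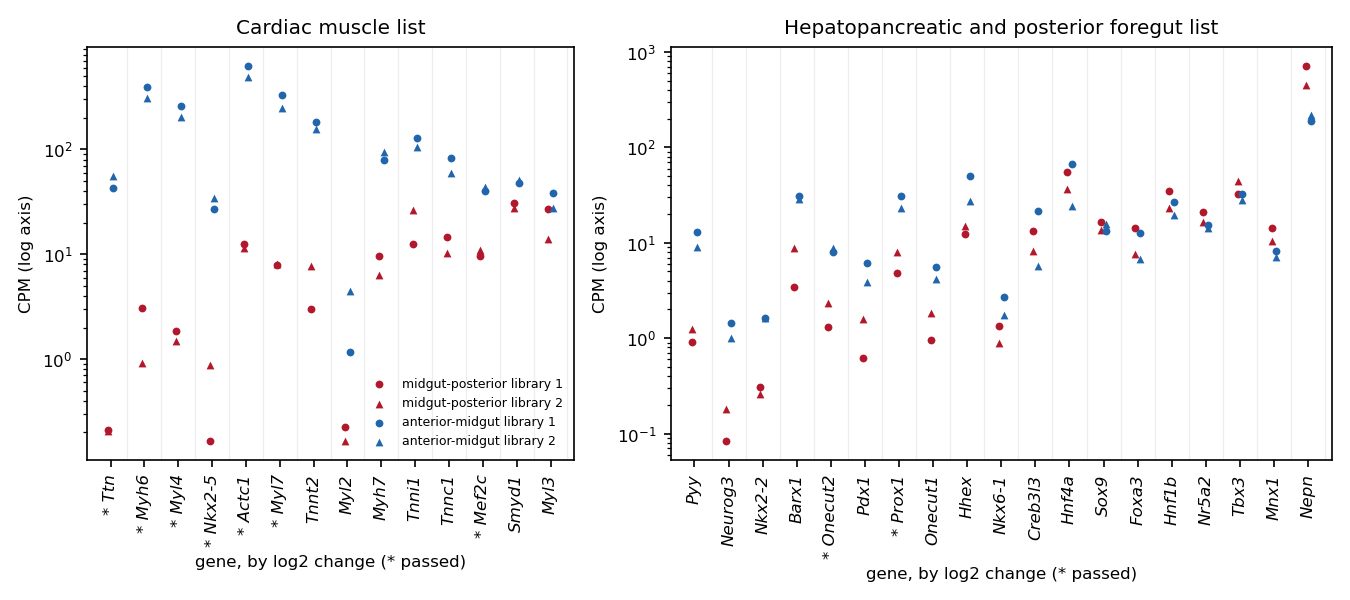
Levels of the 14 cardiac muscle genes (left) and of the hepatopancreatic and posterior foregut genes with at least 1 CPM in a library (right), in CPM on a log axis, ordered by log2 change, with midgut-posterior libraries in red left of anterior-midgut libraries in blue and a star at genes that passed. The cardiac genes from Ttn to Myl7 lie far apart between sections, while on the right only Onecut2 and Prox1 carry a star and Nepn stands highest, at 717 and 454 CPM in the midgut-posterior libraries.

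For genes called lower, the same table held windows for 44 of 56 genes (61 windows). The CArG box, the element bound by serum response factor, was searched with 6 A or T letters between its outer bases, on both strands, and was found in 9.84% of these windows, in 0% of the windows of genes called higher and in 1.26% of the windows of all genes tested. For MEF2, CTA and TAG were searched with any 4 letters between them, not only A or T. This pattern is wider than the MEF2 element, so its shares are not shares of MEF2 elements. It was found in 8.2% of the windows of lower genes, in 3.85% of those of higher genes and in 2.67% of all. The GATA letters AGATAA were found in 9.84%, 7.69% and 6.64% of the same windows, and the TATA box letters TATAAA in 11.5%, 19.2% and 7.32%. Every motif searched was thus more frequent in windows of lower genes than in all windows, with no test. In Ldb3 and Myom1 a CArG box shares bases with a CDX match. Actc1 and Myl7 are shown because they are abundant heart muscle genes whose window holds a CArG box. Capitals mark it, at chr2:114052876-114053125 on the minus strand for Actc1 and chr11:5898783-5899032 on the minus strand for Myl7.
Actc1: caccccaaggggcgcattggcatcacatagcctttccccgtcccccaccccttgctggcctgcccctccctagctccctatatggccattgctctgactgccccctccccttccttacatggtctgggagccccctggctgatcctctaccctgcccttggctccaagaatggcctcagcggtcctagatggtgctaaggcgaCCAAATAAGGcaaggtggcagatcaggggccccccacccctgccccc
Myl7: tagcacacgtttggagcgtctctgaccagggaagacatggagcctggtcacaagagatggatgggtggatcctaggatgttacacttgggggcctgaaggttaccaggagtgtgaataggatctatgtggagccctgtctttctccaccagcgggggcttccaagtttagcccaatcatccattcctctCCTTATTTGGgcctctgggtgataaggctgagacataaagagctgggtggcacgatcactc

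Genes of the liver and pancreas buds were lower in the midgut-posterior section in 2 cases. Prox1, a factor needed for liver and pancreas growth, had 4.84 and 7.93 CPM in the midgut-posterior libraries and 30.8 and 22.9 CPM in the anterior-midgut libraries, a log2 change of -2.07 (SE 0.25, adjusted p = 0.00638 by edgeR). Onecut2, a factor of the same buds, had 1.31 and 2.35 CPM in the midgut-posterior libraries and 7.96 and 8.71 CPM in the anterior-midgut libraries (log2 change -2.18, adjusted p = 0.00856). The other members of this list of 21 tested genes did not pass (0.323% of all genes tested fell), and the list's median was -1.005. Both midgut-posterior libraries lay below both anterior-midgut libraries for 10 of the 21 (20% of all genes tested) and above them for 3 (21.1%). Pdx1, the factor of pancreas and duodenum, had 0.614 and 1.61 CPM in the midgut-posterior libraries and 6.12 and 3.84 CPM in the anterior-midgut libraries (log2 change -2.16, adjusted p = 0.153). Neurog3, which starts endocrine differentiation, had 0.0838 and 0.180 CPM in the midgut-posterior and 1.44 and 1.01 CPM in the anterior-midgut libraries (adjusted p = 0.0583), and Hhex, an early liver and foregut factor, had 12.4 and 15.1 CPM in the midgut-posterior and 49.6 and 27.3 CPM in the anterior-midgut libraries (adjusted p = 0.0724). Hnf4a, which liver, gut and visceral endoderm share, had 55.7 and 36.2 CPM in the midgut-posterior libraries and 67.1 and 24.2 CPM in the anterior-midgut libraries, so that the sections overlapped. Nepn, a secreted proteoglycan of the midgut endoderm, pointed the other way at 717 and 454 CPM in the midgut-posterior libraries and 191 and 221 CPM in the anterior-midgut libraries, without passing (log2 change 1.51, adjusted p = 0.308). Prox1 passed only without midgut-posterior library 2 (adjusted p = 0.0196) or anterior-midgut library 2 (0.0284), and Onecut2 only without midgut-posterior library 2 (0.0196). DESeq2 called 7 genes of the list lower, against 2.56% of all genes tested in either direction.

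Of 20 foregut and pharyngeal genes, 15 had both midgut-posterior libraries below both anterior-midgut libraries, against 20% of all genes tested. Their median log2 change was -1.08, but Nkx2-5, which is also on the cardiac list, was the only call and lost it with any 1 library left out (adjusted p between 0.1405 and 0.527). Tbx1, a factor of pharyngeal endoderm and mesoderm, had 0.893 and 0.471 CPM in the midgut-posterior libraries and 12.02 and 20.97 CPM in the anterior-midgut libraries (log2 change -4.59, adjusted p = 0.0752 by edgeR). Sox2, a factor of the foregut, had 9.80 and 5.81 CPM in the midgut-posterior libraries and 16.5 and 16.7 CPM in the anterior-midgut libraries (adjusted p = 0.562). Ripply3, a repressor that works with Tbx1 in the pharynx, was on no list, was named after its value was seen and fell, with 7.90 and 7.28 CPM in the midgut-posterior libraries against 47.5 and 46.5 CPM in the anterior-midgut libraries (log2 change -2.63, adjusted p = 0.0259). Pax6, a factor of neural tissue and of pancreatic endocrine cells, had 0.223 and 0.263 CPM in the midgut-posterior libraries and 2.56 and 3.08 CPM in the anterior-midgut libraries and was the only call among 13 neural tube genes (log2 change -3.53, adjusted p = 0.0424). Bmper, an extracellular modulator of BMP signals, had 0.991 and 1.02 CPM in the midgut-posterior and 5.10 and 5.70 CPM in the anterior-midgut libraries and was the only call among 25 BMP and TGF-beta genes (log2 change -2.42, adjusted p = 0.0424). Beside these single calls on the foregut, neural tube and BMP lists, 0.323% of all genes tested fell. Ripply3 (adjusted p between 0.116 and 0.342), Pax6 (0.1405 to 0.496) and Bmper (0.158 to 0.472) were not called with any 1 library left out.

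Of the lower genes on no list, some encode matrix or signalling proteins, named here after their values were seen. Spon1 (spondin 1), a matrix protein, had 8.79 and 9.05 CPM in the midgut-posterior libraries and 39.8 and 48.6 CPM in the anterior-midgut libraries (log2 change -2.31, adjusted p = 0.0114 by edgeR). Thbs4, a thrombospondin, had 1.48 and 1.05 CPM in the midgut-posterior and 15.8 and 18.6 CPM in the anterior-midgut libraries (log2 change -3.76), and Npnt (nephronectin), an integrin ligand, had 41.9 and 49.8 CPM in the midgut-posterior and 86.04 and 100.1 CPM in the anterior-midgut libraries (log2 change -1.02). Erbb4, a neuregulin receptor, had 0.279 and 0.374 CPM in the midgut-posterior libraries and 4.21 and 4.65 CPM in the anterior-midgut libraries (log2 change -3.76). Irs4, an insulin receptor substrate, had 6.00 and 10.4 CPM in the midgut-posterior libraries and 38.9 and 24.5 CPM in the anterior-midgut libraries (log2 change -1.95). Tecrl, a gene of heart muscle named by the rule on size, had 0.335 and 0.332 CPM in the midgut-posterior libraries and 6.88 and 10.2 CPM in the anterior-midgut libraries (log2 change -4.67, adjusted p = 0.00638). In total, 25 of the 56 lower genes were on no list, with log2 changes from -1.01 to -4.67. Of the 6 genes given here, Tecrl alone passed with a library left out, without anterior-midgut library 1 (adjusted p = 0.0376), and the others had an adjusted p between 0.0567 and 0.560 in those fits.

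Several cell type lists held no call in edgeR. None of 28 visceral endoderm genes passed, none had an unadjusted p under 0.05, DESeq2 called none, and the median log2 change was 0.01. Afp, the fetal serum protein made by visceral endoderm, had 1219.6 and 690.5 CPM in the midgut-posterior libraries and 1409 and 485 CPM in the anterior-midgut libraries, and Ttr, a carrier of thyroid hormone and retinol, had 573 and 394 CPM in the midgut-posterior and 765 and 291 CPM in the anterior-midgut libraries. The anterior-midgut libraries enclosed the midgut-posterior ones for both genes, so that the sign of the difference turns on which library is left out: for Afp the log2 change ran from -0.56 without anterior-midgut library 2 to 0.98 without anterior-midgut library 1, and for Ttr from -0.66 to 0.73 over the same 2 fits. The summed level of the list was 10649 and 6947 CPM in the midgut-posterior libraries and 12519 and 4992 CPM in the anterior-midgut libraries. None of 14 endothelial genes passed in edgeR (3 higher at an unadjusted p under 0.05, none by DESeq2), though 13 had both midgut-posterior libraries above both anterior-midgut libraries (21.1% of all genes tested), with a median of 0.68. Pecam1, an adhesion protein of vessels, had 67.2 and 49.1 CPM in the midgut-posterior libraries and 35.5 and 36.6 CPM in the anterior-midgut libraries (adjusted p = 0.893). None of 11 primitive blood genes passed (3 higher at an unadjusted p under 0.05, none by DESeq2), 8 had both midgut-posterior libraries above both anterior-midgut libraries, against the same 21.1%, and the median was 0.82. The embryonic globin Hbb-bh1 had 279 and 506 CPM in the midgut-posterior libraries and 195 and 257 CPM in the anterior-midgut libraries, with midgut-posterior library 2 highest, as it was for 10 of the 11 genes. None of 18 cell cycle and 16 stress genes passed in edgeR or DESeq2 or had an unadjusted p under 0.05.

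**Figure D4:**
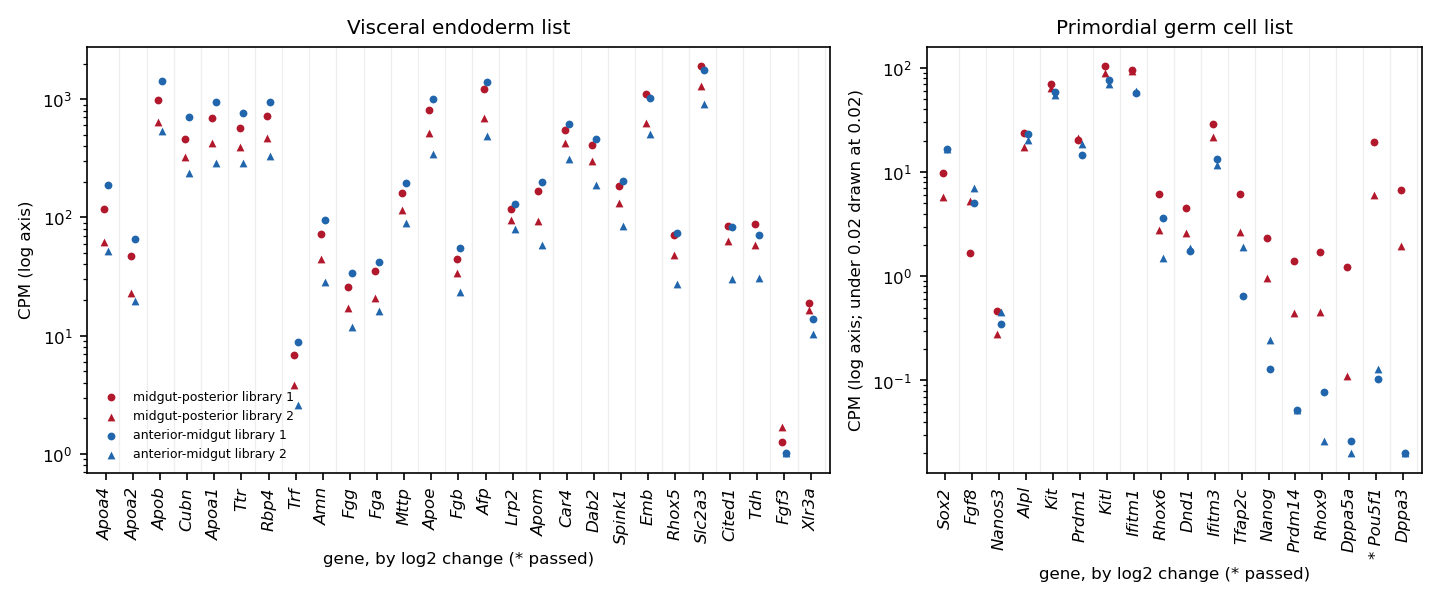
Levels of visceral endoderm genes with at least 1 CPM in a library (left) and of 18 germ cell genes (right), in CPM on a log axis, ordered by log2 change, with midgut-posterior libraries in red left of anterior-midgut libraries in blue, library 1 as circles and library 2 as triangles. On the left anterior-midgut library 2 is lowest throughout, and on the right Pou5f1, the only star, and Dppa3 lie at the end.

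Along the tube, most of the higher genes climbed further toward the posterior end, and most of the lower genes peaked in the anterior-midgut section. Of the 30 higher genes, 28 had their highest mean in the posterior section (93.3%, against 27.6% of all genes tested). The other 2 peaked in the midgut-posterior section (6.67%, against 22.7%). Both posterior libraries lay above both midgut-posterior ones for 25 of the 30 (83.3%, against 23.3% of all genes tested). Hoxa7 had 307 and 188 CPM and Cdx2 322 and 209 CPM in the posterior libraries, while Fabp1 had 9.79 and 4.78 CPM there, which overlapped its midgut-posterior levels. Further forward the higher genes were mixed. Both anterior libraries lay below both anterior-midgut libraries for 16 of the 30 (53.3%, against 29.7% of all genes). They lay above them for 6 (20%, against 25.8%). Rarg, 1 of these 6, had 35.2 and 32.7 CPM in the anterior and 22.5 and 23.5 CPM in the anterior-midgut libraries. Cxcr4, another of the 6, was higher in both outer sections than in either middle one. It had 21.4 and 13.3 CPM in the anterior and 21.1 and 20.3 CPM in the posterior libraries. Of the 56 lower genes, 12 peaked in the anterior section (21.4%, against 28.6% of all genes) and 44 in the anterior-midgut one (78.6%, against 21.1%). By the way they were chosen, lower genes cannot peak in the midgut-posterior section, nor higher genes in the anterior-midgut one. Both anterior libraries lay below both anterior-midgut libraries for 36 of the 56 (64.3%, against 29.7% of all genes), among them Actc1 with 153 and 295 CPM and Prox1 with 11.7 and 13.7 CPM in the anterior libraries. Both posterior libraries lay below both anterior-midgut libraries for all 56, against 27.2% of all genes. Against the midgut-posterior libraries, both posterior libraries were higher for 17 of the 56 (30.4%, against 23.3% of all genes). They were lower for 26 (46.4%, against 25.5%). These shares reuse the 4 libraries that chose the genes and are given with no test.

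**Figure D5:**
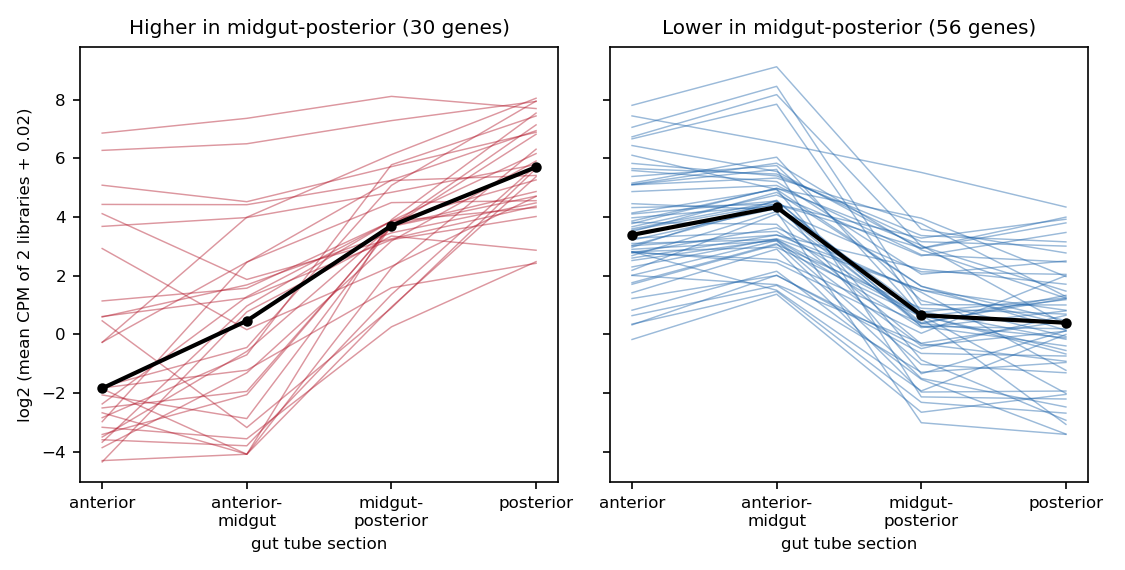
Mean level of each called gene in the 4 sections, from anterior to posterior, as log2 of the mean CPM of 2 libraries plus 0.02, with 1 thin line per gene and the median in black. Of the 30 higher genes (left), 28 have their highest mean in the posterior section. The 56 lower genes (right) are highest in the anterior-midgut or anterior section and lower in the sections behind the anterior-midgut one.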

How the data were processed

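Bulk polyadenylated RNA was sequenced from 16 libraries in 8 groups of 2, of which the midgut-posterior and anterior-midgut sections are compared here. The deposited values are raw read counts per gene symbol (26795 entries per library), made by the authors after alignment with STAR, per the submitters' processing notes. The aligner's version, the genome build, the annotation, the counting program and its use of strand are not given in the sources used, so reads of overlapping and antisense genes, as in the Hox clusters, may not be told apart. Counts of 32 repeated symbols were summed. Totals ran from 57061536 to 84509973 counts, so for well-read genes sampling noise is small beside the spread between libraries. The chi-square per gene, a mean in which abundant genes weigh most, was 40.4 between the midgut-posterior and 61.9 between the anterior-midgut libraries. This does not cover genes with few counts in a section, such as Cdx4 and Evx1 with 2 and 4 counts in the anterior-midgut libraries.

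Genes were filtered with filterByExpr (minimum count 10, minimum total 15), which left 17313, and fitted in edgeR 4.0.16 under R 4.3.3 with TMM factors, 1 coefficient per group over all 16 libraries (8 residual degrees of freedom), the two-sided quasi-likelihood F-test and Benjamini-Hochberg adjustment over all genes. SE is the log2 change divided by the square root of F. The script was tested on simulated data. Alternatives were RLE size factors, no filter, a replicate block, fits of 4 or 8 libraries, DESeq2 1.42.0 and leaving out each library.

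The comparison, the 35 gene lists and the rule for named genes (12 largest changes in each direction whose mean log2 CPM reached 3, all Hox genes, up to 4 called members of a list, and a set of key genes) were chosen with earlier results of these data known, and 4 further lists were added after the values were seen. Genes named outside the rule were chosen after their values were seen. Promoter windows were read from a RefSeq table of build GRCm38.p6.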

Additional observations from a re-analysis of the deposited data

How the results depend on the processing

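The number of calls moved with the fit, while every called gene kept its direction under all 10 alternatives. Without the filter on low counts 152 genes passed (51 higher, 101 lower), in the fit of the 4 libraries 251 (71 higher, 180 lower), in the fit of the 8 section libraries 177 (50 higher, 127 lower) and in DESeq2 443 (173 higher, 270 lower). RLE size factors gave 87, of which 84 were among the 86. Leaving out 1 library, with the lone library assumed to vary like the other groups, gave 6 to 17 calls, 2 to 10 of them higher and 0 to 7 lower, and the log2 changes of uncalled genes turned in sign for Afp (-0.56 to 0.98), Epcam (-0.23 to 0.25), Hnf4a (-0.55 to 0.93), Ttr (-0.66 to 0.73), Hoxa3 (-0.32 to 0.0306), Hoxa4 (-0.28 to 0.0527), Hoxb2 (-0.37 to 0.0584), Hoxb3 (-0.33 to 0.16), Hoxb4 (-0.43 to 0.14) and Hoxc11 (-3.08 to 5.82). The replicate block on library numbers gave 53 calls, 21 higher and 32 lower, and turned the sign of the uncalled Afp (-0.0551), Hnf4a (-0.0365) and Hoxb13 (-0.00231, with 0 counts in all 4 libraries). It kept 52 of the 86 calls and lost 34, 10 higher and 24 lower, at an adjusted p between 0.0506 and 0.0827, among them Actc1, Myh6, Myl7, Hspb7, Ldb3, Hoxa10, Hoxc6, Aqp7, Cxcr4, Rarg, Pax2, Pax6, Bmper and Ripply3. Nothing in the labels says that a number is shared between sections. Deviations of libraries with the same number correlated at 0.166, and library 1 was above library 2 in both sections for most epithelial and visceral endoderm genes. Whether the numbers pair the libraries is not known. The causes of these movements were not tested. With 2 libraries in a section, a gene that missed the threshold is not shown to be level.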

Other observations

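Signalling pathways held few calls in edgeR. Of 67 Wnt genes on 4 lists, none passed in edgeR. An unadjusted p under 0.05 was reached by 12 higher and 6 lower genes of the 67, against 1241 of all 17313 genes tested. By DESeq2 5 were higher and 1 lower, against 2.56% of all genes called in either direction. Lef1, a transcription factor and target of Wnt signals, had 36.9 and 47.5 CPM in the midgut-posterior libraries and 15.2 and 25.5 CPM in the anterior-midgut libraries (log2 change 1.05, adjusted p = 0.241 by edgeR), and the sections did not overlap. Sfrp5, a secreted Wnt antagonist of the foregut, had 12.3 and 28.1 CPM in the midgut-posterior libraries and 114 and 74.4 CPM in the anterior-midgut libraries (log2 change -2.22, adjusted p = 0.426), again without overlap. None of 16 hedgehog genes passed in edgeR (1 higher at an unadjusted p under 0.05, none by DESeq2). Shh, the ligand made by gut endoderm and notochord, had 84.0 and 48.5 CPM in the midgut-posterior libraries and 41.5 and 43.9 CPM in the anterior-midgut libraries. These genes were named after their values were seen.

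None of 10 notochord genes passed in edgeR (2 higher at an unadjusted p under 0.05, and 2 by DESeq2), with a median log2 change of 0.59. Both midgut-posterior libraries lay above both anterior-midgut libraries for 5 of the 10 (21.1% of all genes tested) and below them for 2 (20%). Noto, a homeobox gene of the posterior notochord, had 6.41 and 5.23 CPM in the midgut-posterior libraries and 0.208 and 0.104 CPM in the anterior-midgut libraries (log2 change 5.21, adjusted p = 0.133 by edgeR). Foxa2, also a marker of gut epithelium, pointed the other way (log2 change -0.59, adjusted p = 0.984 by edgeR). Its levels were 25.4 and 18.2 CPM in the midgut-posterior libraries and 37.9 and 27.5 CPM in the anterior-midgut libraries. None of 27 splanchnic and lateral plate mesoderm genes passed in edgeR (2 higher and 6 lower at an unadjusted p under 0.05, 1 lower by DESeq2), with a median of -0.08. Foxf1, a factor of the gut mesoderm, had 185 and 243 CPM in the midgut-posterior libraries and 182 and 209.6 CPM in the anterior-midgut libraries, which overlapped.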
